A study of Mus musculus with 12 samples.

Results

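In the 3′ untranslated region (3′ UTR) of protein-coding mouse transcripts, ZBTB43 affinity sequencing found 71 peaks on unmethylated DNA and 1210 peaks on CpG-methylated DNA. A peak was counted here when its midpoint lay in a 3′ UTR of a protein-coding transcript on an autosome and in no coding sequence. The 71 peaks were 0.488% of the 14554 autosomal peaks on unmethylated DNA (14694 on all chromosomes). The 1210 peaks were 0.715% of the 169284 autosomal peaks on methylated DNA (175775 on all chromosomes).

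Affinity sequencing mixes sheared genomic DNA with a purified protein in vitro and sequences the fragments that the protein retains. Full-length mouse ZBTB43, a BTB and zinc finger protein, was fused to the maltose-binding protein (MBP), and MBP alone gave the background. Unmethylated DNA came from male TKO embryonic stem cells (Dnmt1-/-Dnmt3a-/-Dnmt3b-/-, age given as 3.5 dpc), a single cloned line that lacks the DNA methyltransferases. Methylated DNA came from lung of adult wild-type C57BL/6N males aged 2 months and was treated with the bacterial CpG methyltransferase M.SssI. Each combination of protein and DNA had 2 libraries, and 4 libraries of sperm DNA were not analysed here. Cell source and methylation differed together between the TKO and SssI DNA, so their effects cannot be told apart. The 2 libraries of a combination were pooled before peak calling, so no spread between replicates is known and no test between the DNAs was made. Intervals in brackets are Wilson 95% intervals and cover counting error only.

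The 3′ UTR follows the stop codon and carries the sites at which microRNAs and RNA-binding proteins act on a messenger RNA, together with the signals for polyadenylation. Repeats of CA or GT read as CA or UG in the transcript, depending on strand. CA-rich RNA is bound by hnRNP L, and UG repeats by TDP-43 and CELF proteins. In DNA, the same repeats are alternating purine-pyrimidine tracts, which can take up the left-handed Z-DNA form. Affinity sequencing reads the DNA and not the RNA, so strand here describes the repeat relative to its gene.

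The following stretches show the range of sequence under the peaks, from plain repeats to repeats broken by CpGs and to peaks with no alternating tract. Each is read 5′ to 3′ on the transcript strand from the mm10 (GRCm38) reference, with CpGs in capitals.
Ncam1 (chr9:49517338-49517367, minus strand): cacaCGCGcacacaCGcacaCGcacaCGca
Prkg1 (chr19:30566679-30566708, minus strand): gCGtgtgtgtgtgtaCGtgtgcatgtgtgc
Arf3 (chr15:98738512-98738541, minus strand): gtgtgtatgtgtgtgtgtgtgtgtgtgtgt
Pax5 (chr4:44526254-44526279, minus strand): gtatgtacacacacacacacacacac
Onecut3 (chr10:80517026-80517055, plus strand): acaCGCGCGCGtgcacacacacacacacac
Cadm2 (chr16:66659931-66659960, minus strand): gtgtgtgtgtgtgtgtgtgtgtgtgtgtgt
Appl1 (chr14:26923251-26923280, minus strand): gtgttgtaacaatattgagtgtgcaataga
Shank1 (chr7:44357817-44357846, plus strand): tgcaCGcctgttccccttcctggctgcagt
The stretches of Ncam1, Prkg1, Arf3 and Pax5 are parts of the longest tract under peaks found on both DNAs. Those of Onecut3 and Cadm2 come from peaks found on SssI DNA alone, and those of Appl1 and Shank1 are the centres of peaks without an alternating tract.

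Peaks were less dense in 3′ UTRs than across the autosomes. The 3′ UTRs covered 31.0 Mb, or 1.30% of autosomal sequence. On TKO DNA they held 2.29 peaks per Mb, against 6.07 per Mb over all autosomes and 7.096 per Mb in introns. On SssI DNA they held 38.99 peaks per Mb, against 70.7 over all autosomes and 79.6 in introns. The peak density relative to all autosomes was therefore 0.377 on TKO DNA and 0.552 on SssI DNA. Alternating purine-pyrimidine tracts were also sparser in 3′ UTRs. Tracts of at least 12 bp, leaving out those of A and T only, had a density 0.732 times that of the autosomes, and tracts of at least 24 bp 0.554 times. The SssI peaks were thus thinned to about the same extent as the longer tracts, and the TKO peaks more.

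The 71 TKO peaks lay in 71 genes, 0.355% of the 19987 genes with a 3′ UTR. The 1210 SssI peaks lay in 1115 genes, 5.58% of those genes. Of these genes, 1032 held 1 SssI peak, 73 held 2, 8 held 3 and 2 held 4. All 71 TKO peaks were in the last exon, as were 1208 of the 1210 SssI peaks. So were 14694 of the 14711 alternating tracts of at least 12 bp in 3′ UTRs, under a peak or not. Genes with longer UTRs held peaks more often: on SssI DNA, 0.404% of genes whose longest 3′ UTR was under 500 bp had a peak, against 23.8% (21.7 to 26.1) of genes with at least 4000 bp. Per Mb of UTR the same length classes held 16.7 and 40.4 genes with a peak, and the classes from 1000 bp upwards lay between 38.9 and 40.4. The median longest UTR was 987 bp over all genes, 2716 bp for genes with an SssI peak and 3159 bp for genes with a TKO peak.

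The score deposited for a peak is 10 times the −log10 of its q-value, and it was ranked within its own list only. The highest-scoring TKO peak in a 3′ UTR was in 6030408B16Rik, with a score of 2790 and rank 122 of 14694. It lay 1273 bp past the stop codon of a 1654 bp UTR, over an 86 bp tract. The peak in Arf3, a small GTPase of the Golgi, scored 2602 (rank 197) near the middle of its UTR, 1754 bp from the stop codon of 3699 bp. In Pcdhb22, a clustered protocadherin, the peak scored 2564 (rank 222) over a 190 bp tract with 26 CpGs. These were the only members within the highest 2% of the TKO list, at 0.830%, 1.34% and 1.51% from the top.

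The next peaks fell in genes of varied function. Ncam1, the neural cell adhesion molecule, held a peak of score 2283 at the centre of a UTR of only 228 bp, with the CA repeat on the transcript strand and 22 CpGs in the peak. The peak was 391 bp wide and reached beyond the UTR, so not all of these CpGs need lie in it. The peak of Elfn1, a synaptic adhesion protein, scored 2051 over a plain CA run of 36 bp. Shq1, an assembly factor of H/ACA ribonucleoproteins, had a score of 1928 and the longest tract of all members, 423 bp, with 76 CpGs in the peak. Fam53c scored 1857, and its longest tract was 21 bp, with 13 CpGs in the peak. Pax5, a B cell transcription factor, scored 1787 although its tract was 26 bp and the peak held 1 CpG. Long tracts and many CpGs were therefore found among the highest scores, but the peak of Pax5 had a short tract and few CpGs.

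The rest of the 12 highest-scoring TKO peaks included those in Fyco1, an adaptor in autophagosome transport (score 1294), Lhfpl4, a partner of GABA-A receptors (1243), and Prkg1, a cGMP-dependent protein kinase (917). Lhfpl4 and Prkg1 had UG on the transcript strand, and Fyco1 had CA. At the low end, Vmn1r206, a vomeronasal receptor, scored 24 (rank 14562) and N6amt1, a methyltransferase, scored 20 (rank 14597). The peak over the same site of N6amt1 on SssI DNA scored 1611, rank 2982 of 175775.

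Among all autosomal TKO peaks, 50.3% scored at or above the median of the list, and 28 of the 71 members did (39.4%, 28.9 to 51.1). The median score of the members was 162, with quartiles of 87 and 516.5, and that of the other autosomal TKO peaks was 193. The background share lay inside the interval of the members, so no difference in score was detectable with 71 peaks. On SssI DNA the median score was 101 for the members (quartiles 59 and 217) and 108 for the other peaks. At or above the median of the list were 47.5% (44.7 to 50.3) of the SssI members and 50.5% of all autosomal SssI peaks. Of the SssI members, 99 were in the highest-scoring 10% of the list (8.18%, 6.77 to 9.86), against 10.2% of the other peaks, and 138 in the lowest 10% (11.4%, 9.73 to 13.3), against 9.55%.

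Grouped by the known role of the gene, a grouping made after the members were known, 14 TKO members were neuronal or synaptic genes. The share of such genes among all genes with a 3′ UTR was not determined, so the count is a description only. They included Grin2b, an NMDA receptor subunit (score 165), Bsn, the presynaptic scaffold bassoon (110), Camk2a, a calcium and calmodulin-dependent kinase (104), and Tacr1, the neurokinin receptor (121). Their scores ran from 80 to 2564 with a median of 227.5, and 11 of the 14 peaks held at least 6 CpGs, as did 30 of all 71 members. A further 10 members were genes of transcription and chromatin, among them Kdm4a, a histone demethylase (726), E2f1, a cell cycle factor (509), and Epas1, a hypoxia-inducible factor (415). Of these 10 peaks, 6 held at least 6 CpGs. The 10 signalling genes, such as Gsk3b, a kinase of the Wnt pathway (604), Inhba, an activin subunit (457), and Bmp7, a bone morphogenetic protein (145), had a median score of 309.5.

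Another 5 TKO members were in receptor genes of the olfactory and vomeronasal families. Vmn1r197 (score 349), Vmn2r102 (170), Olfr1438-ps1 (72), Olfr1342 (57) and Vmn1r206 (24) had a median of 0 CpGs in the peak, and 4 of the 5 peaks held no CpG. SssI members of these families could hold more, up to 14 CpGs in Olfr279 (score 358). Their UTRs were 2017 to 14785 bp long. These receptors belong to multigene families, as do the thioesterase genes Acot2 (71) and Acot4 (47). No filter on mapping quality is stated for the peak calling, so reads of near-identical copies may be placed at either copy and the location of these peaks is uncertain.

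All 71 TKO members overlapped an SssI peak, and each lay over a different SssI member; 99.4% of all autosomal TKO peaks overlapped one. In the other direction, 71 of the 1210 SssI members (5.87%, 4.68 to 7.34) overlapped a TKO peak, against 8.47% of all autosomal SssI peaks. The SssI peaks over the TKO members ranked from 356 to 37515 of 175775, with a median rank of 7998. Of the 71, 57 were in the highest-scoring 10% of the SssI list. Most of the 14262 other autosomal SssI peaks with a TKO peak were there too. They numbered 1648 in the highest 1%, 6014 from 1 to 5% and 4226 from 5 to 10%. All 9 SssI members in the highest 1% had a TKO peak, against 95.3% of the other peaks of that rank. From 1 to 5%, 28 of 36 members did (77.8%, 61.9 to 88.3), against 86.8% of other peaks of the same rank, and from 5 to 10%, 20 of 54 (37.0%, 25.4 to 50.4) against 49.6%. From 10 to 25% the shares were 7.57% and 7.53%. In the lower 50% none of 635 members had a TKO peak, with an upper Wilson limit of 0.601%, and 0.162% of the other peaks had one. In each of these rank classes the interval of the members included the share of the other peaks.

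**Figure D1:**
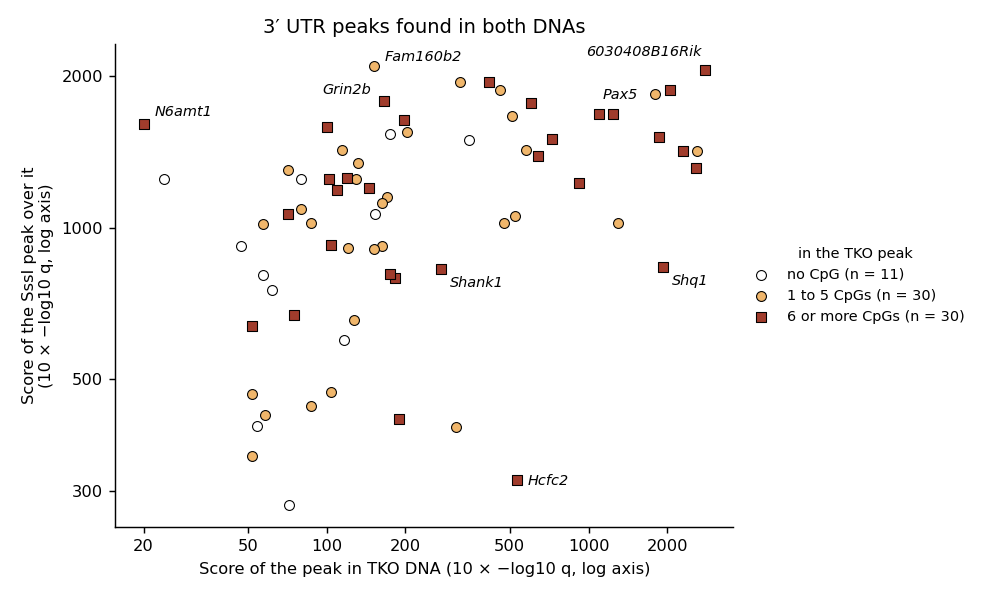
Score of each of the 71 TKO peaks in a 3′ UTR (horizontal) against the score of the SssI peak over it (vertical), both as 10 × −log10 q on log axes, 1 point per peak, with the marker giving the CpGs in the TKO peak. Fam160b2 has the highest SssI score (2097) with a TKO score of 152, N6amt1 the lowest TKO score (20) with an SssI score of 1611, and Shq1 a TKO score of 1928 with an SssI score of 836.

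The order of the members was only loosely shared between the DNAs. Across the 71 sites, the rank correlation of the TKO score with the SssI score was 0.486. The sites share their sequence in the 2 DNAs, and the correlation is given as a description. The highest SssI score in a 3′ UTR was in Fam160b2 (2097, 0.203% from the top of that list), whose TKO peak scored 152, 56.9% from the top. Grin2b was 0.930% from the top of the SssI list and 53.9% from the top of the TKO list. Iqsec3, an exchange factor of inhibitory synapses, was at 0.451% and 36.6%. Shq1, with its 76 CpGs, was near the same place in both, at 7.93% of the SssI list and 5.22% of the TKO list.

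The 12 highest-scoring SssI members all had a TKO peak, with scores from 2097 down to 1667. Among them were Fam160b2, 6030408B16Rik, Epas1, Iqsec3, Elfn1, Inhba, Pax5, Grin2b, Gsk3b, Lhfpl4 and E2f1. The 6 highest without one, chosen after their values were seen, were in Cadm2, a cell adhesion molecule (1487), Slf2, a partner of the SMC5/6 complex (1444), Onecut3, a homeobox transcription factor (1440), Lonrf1 (1409), Cacna2d2, an auxiliary calcium channel subunit (1409), and Mdm2, the ubiquitin ligase of p53 (1189). Their longest tracts were 49 to 87 bp and each peak held 4 to 8 CpGs. The shared members ran from 0 to 423 bp and from 0 to 76 CpGs, a range too wide to set such peaks apart.

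An alternating tract of at least 12 bp was present in 68 of the 71 TKO members (95.8%, 88.3 to 98.6), against 96.5% of all autosomal TKO peaks. The TKO members without one were Appl1, an endosomal adaptor (score 579), Shank1, a postsynaptic scaffold (273), and Pes1, a ribosome assembly factor (52). On SssI DNA 1180 of 1210 members held a tract (97.5%, 96.5 to 98.3), against 98.6% of all autosomal SssI peaks, and the highest-scoring of the 30 without was again Appl1 (1428). The median longest tract was 54 bp in TKO members and 46 bp in other TKO peaks, and 46 bp in both sets on SssI DNA. Tracts of at least 60 bp were in 42.3% (31.5 to 53.8) of TKO members and 31.8% of the other TKO peaks.

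The 3′ UTR peaks held more CpGs than the other peaks on both DNAs. TKO members held a median of 4 CpGs and other TKO peaks 2. At least 6 CpGs were in 30 of the 71 TKO members (42.3%, 31.5 to 53.8), against 18.4% of the other autosomal TKO peaks and 20.7% of TKO peaks in introns. On SssI DNA, 178 of the 1210 members did (14.7%, 12.8 to 16.8), against 8.47% of the others and 9.95% in introns. Peaks with no CpG were 23.7% (21.4 to 26.2) of SssI members against 31.6% of the other SssI peaks, and 15.5% (8.88 to 25.7) of TKO members against 24.9%, a share inside the interval. The GC content of the peaks moved with this, with medians of 48.0% and 45.3% for TKO members and other TKO peaks and 46.4% and 44.3% on SssI DNA. All 3′ UTR sequence had a GC content of 42.9% and the autosomes 41.9%. Tracts of at least 12 bp in 3′ UTRs, under a peak or not, also held a CpG more often. The shares were 23.5% in 3′ UTRs and 18.5% over all autosomes. The part of base composition and of the tracts present in the CpG difference of the peaks was not tested.

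**Figure D2:**
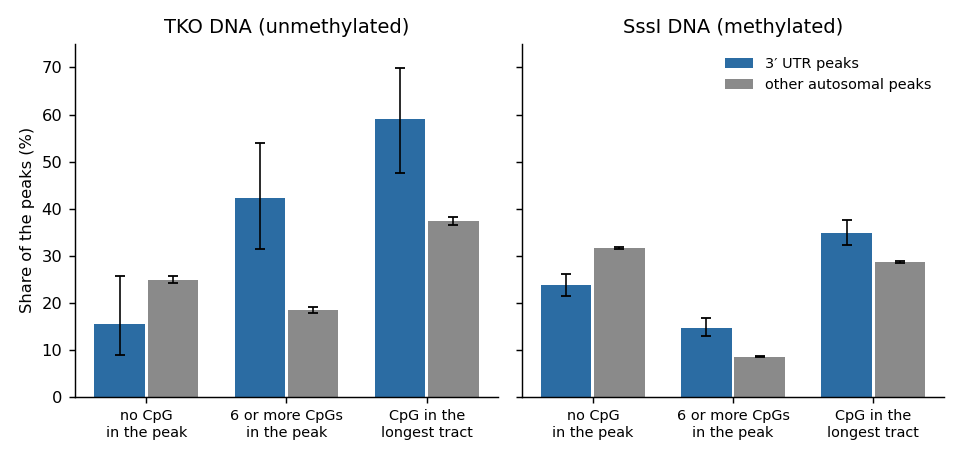
Share of peaks (vertical, %) with no CpG, with at least 6 CpGs, and with a CpG inside the longest alternating tract, for 3′ UTR peaks (blue) and all other autosomal peaks (grey) on TKO and SssI DNA. Bars show the share and whiskers its Wilson 95% interval; 59.2% of the TKO members and 37.4% of the other TKO peaks had a CpG inside the tract.

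The same difference was seen inside the tract itself. The longest tract contained a CpG in 42 of the 71 TKO members (59.2%, 47.5 to 69.8), against 37.4% of the other TKO peaks. It was a plain CA or GT repeat in 10 members (14.1%, 7.83 to 24.02), against 14.3%. Tracts with other steps, such as TA or GC, but no CpG made up 22.5% (14.4 to 33.5) of the members against 44.7% of the others. On SssI DNA the longest tract held a CpG in 34.9% (32.2 to 37.6) of members and 28.7% of the others. Within the SssI members, the median score was 79 with no CpG in the peak, 90 with 1 to 2, 120 with 3 to 5 and 285 with 6 or more. The rank correlation of CpG count with score was 0.300 in the members and 0.308 over all autosomal SssI peaks. The share with a TKO peak was 2.09% (0.962 to 4.49) in the lowest of these classes and 19.7% (14.5 to 26.1) in the highest. Peaks with more CpGs were also wider, with median widths of 176 bp and 239 bp in the lowest and highest class, and the part of width was not tested.

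The share of repeats under a peak depended on their length. Short repeats in 3′ UTRs lay under a peak less often than those in introns. The 3′ UTRs held 14711 tracts of 12 bp or more, and 15.02% of them lay under an SssI peak, against 27.4% of intronic tracts and 26.9% of all autosomal tracts. For TKO DNA the shares were 1.84%, 5.11% and 4.84%. Among tracts of 12 to 15 bp, 5.91% (5.42 to 6.43) in 3′ UTRs and 15.7% in introns overlapped an SssI peak. In 3′ UTRs 500 such tracts did, but only 15 SssI members had a longest tract of 12 to 15 bp. Most of these short tracts thus lay in peaks with a longer tract. The part of such neighbours in the difference from introns was not tested. Among tracts of at least 60 bp the shares in 3′ UTRs and introns were 63.6% (58.3 to 68.6) and 59.4%. On SssI DNA the lower share of the short tracts was thus not present in the long ones. On TKO DNA, 3.24% (2.43 to 4.31) of tracts of 36 to 59 bp in 3′ UTRs and 5.37% in introns overlapped a peak. At 60 bp or more the TKO shares were 11.9% (8.89 to 15.9) and 11.7%. CpGs separated these long tracts in 3′ UTRs: 85.5% (79.2 to 90.2) of those with a CpG and 43.8% (36.6 to 51.1) of those without overlapped an SssI peak. For TKO peaks the shares were 21.4% (15.7 to 28.4) and 3.41% (1.57 to 7.24). Introns gave 80.9% and 44.9% on SssI DNA and 18.4% and 7.13% on TKO DNA, so the separation was not particular to 3′ UTRs.

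For uninterrupted (CA)n or (TG)n runs of at least 12 bp, the 3′ UTRs held 3451, of which 47.2% overlapped an SssI peak and 6.49% a TKO peak. On SssI DNA the share in 3′ UTRs was 30.7% (28.5 to 33.01) for runs of 12 to 19 bp and 90.4% (85.9 to 93.6) for runs of at least 50 bp. Runs in introns gave 47.4% and 92.3%. On TKO DNA the share did not rise with run length, and was 7.27% (6.09 to 8.65) for 12 to 19 bp, 9.79% (7.70 to 12.4) for 20 to 29 bp and 3.49% (1.78 to 6.74) for at least 50 bp. A short run can lie beside a longer tract in the same peak, so these shares are not those of isolated repeats.

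**Figure D3:**
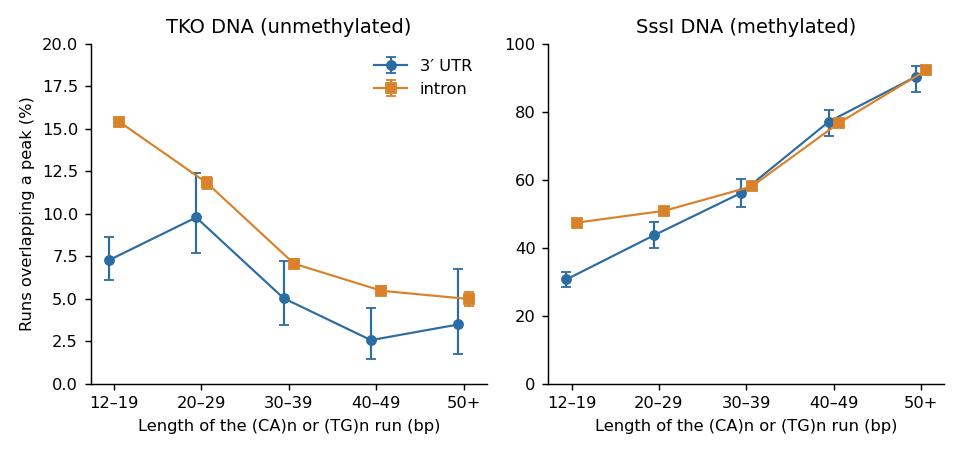
Share of (CA)n or (TG)n runs overlapping a peak (vertical, %; the scales of the panels differ) by length of the run in bp (horizontal), in 3′ UTRs (blue) and introns (orange), with Wilson 95% intervals. On SssI DNA the curves meet from 30 bp on and part below it, and on TKO DNA the 3′ UTR points lie below the intron points in every length class.

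The strand of the repeat relative to the transcript leaned to UG. Of the 66 TKO members with a run of at least 12 bp, 27 had CA and 39 had UG on the transcript strand (40.9% CA, 29.9 to 53.0). Of 1127 such SssI members, 512 had CA and 615 had UG (45.4% CA, 42.5 to 48.3). All 3451 runs in 3′ UTRs, whether captured or not, were 47.4% CA (45.7 to 49.1), a share inside the intervals of the TKO and SssI members. In the SssI list, 44.9% (42.5 to 47.3) of CA runs and 49.4% (47.1 to 51.7) of UG runs overlapped a peak. The share was higher for UG in each of the length classes, with 51.0% (44.9 to 56.9) for CA and 61.2% (55.3 to 66.8) for UG at 30 to 39 bp. The intervals overlapped in every class, which does not show that the shares are equal, and the difference was not tested. In the TKO list the shares were 6.48% and 6.50%. SssI members with UG held a median of 2 CpGs and scored 109 at the median, and those with CA held 1 and scored 96.

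**Figure D4:**
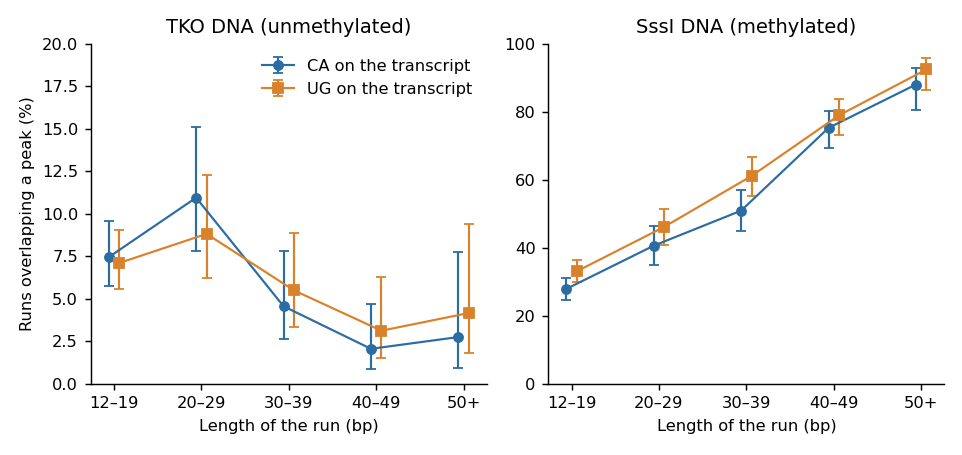
Share of runs in 3′ UTRs overlapping a peak (vertical, %; the scales of the panels differ) by length of the run in bp (horizontal), for runs that read CA (blue) or UG (orange) on the transcript strand, with Wilson 95% intervals. The UG points lie above the CA points in all classes on SssI DNA, with overlapping intervals.

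Peaks were spread along the UTR, and on SssI DNA the bin at its end held the fewest. The median position, from 0% at the stop codon, was 42.6% (36.8 to 52.1, order-statistic interval) for TKO members and 47.6% (44.6 to 50.3) for SssI members. Tracts of at least 12 bp had a median position of 52.1% and those of at least 24 bp 49.2%. The distance from the stop codon had a median of 1001 bp for TKO members (68 to 13504 bp) and 1095 bp for SssI members. With the UTR divided into 5 equal bins from the stop codon, the TKO members numbered 10, 22, 17, 10 and 12, and the SssI members 220, 287, 278, 255 and 170.

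Set against the tracts present in each bin, the last bin gave the lowest share on SssI DNA. In the second bin 48.7% (45.0 to 52.4) of the tracts with 24 bp or more lay under an SssI peak, and 33.02% (29.1 to 37.2) did in the last, where the median tract was 35 bp against 40 bp. Among tracts of 36 to 59 bp, where the medians were both 45 bp, the shares were 59.9% (54.5 to 65.1) and 48.5% (41.8 to 55.3), and the intervals overlapped. In the last 100 bp of the transcript lay 30 SssI members (2.48%, 1.74 to 3.52), against 6.95% of tracts of at least 12 bp, 3.87% of those of at least 24 bp and 3.03% of those of 36 to 59 bp, the last of which is inside the interval. In the first 100 bp after the stop codon lay 35 SssI members (2.89%), against 4.34% and 2.82% of those tracts.

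**Figure D5:**
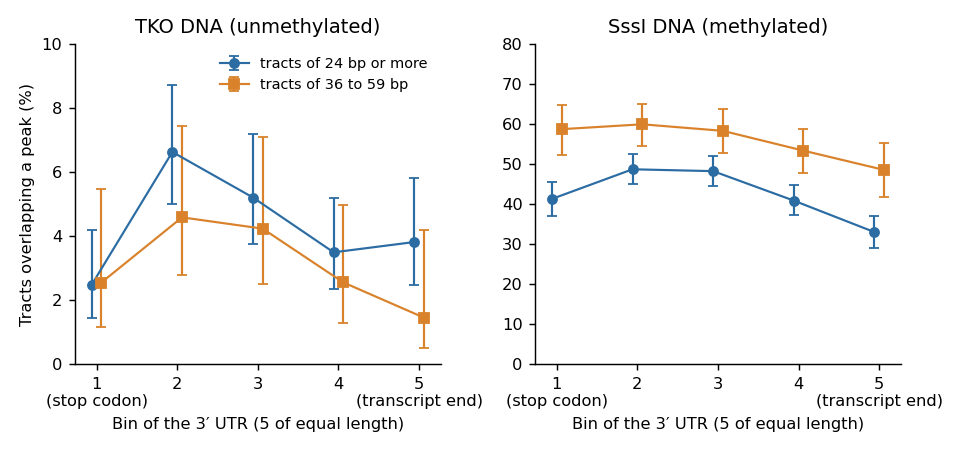
Share of alternating tracts in 3′ UTRs overlapping a peak (vertical, %; the scales of the panels differ) by bin of the UTR from stop codon to transcript end (horizontal), for tracts of at least 24 bp (blue) and of 36 to 59 bp (orange), with Wilson 95% intervals. On SssI DNA the share of tracts of at least 24 bp runs from 48.7% in the second bin to 33.02% in the last, and that of tracts of 36 to 59 bp from 59.9% to 48.5%.

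The members nearest the ends of UTRs covered a wide range of scores. In UTRs of at least 1000 bp, the SssI members nearest the stop codon were in 5730409E04Rik (6 bp, score 844), Has2, a hyaluronan synthase (10 bp, score 52), and Pura, a single-stranded nucleic acid binding protein (32 bp, score 38). Those nearest the transcript end were in Naaa, a lysosomal amidase (43 bp, score 49), Six3, a homeobox factor of the forebrain (50 bp, score 126), and Ppfia4, a liprin (60 bp, score 293). For TKO members the nearest to the stop codon were Il17ra, an interleukin receptor (68 bp, score 87), Pkib, an inhibitor of protein kinase A (139 bp, score 52), and Mfsd6 (174 bp, score 132). The nearest to the end were Pes1 (198 bp), Fnbp1, a membrane-bending formin-binding protein (219 bp, score 87), and Ociad2 (247 bp, score 643).

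In several of the genes with at least 3 SssI peaks, 1 peak scored far above the others. D1Ertd622e, with a UTR of 39397 bp, held 4 peaks with scores of 42, 79, 753 and 42 from the stop codon on, the first 2 with UG and the last 2 with CA on the transcript. Onecut3 held peaks of 73, 340 and 1440, rising towards the end of its UTR. Nrp2, a semaphorin receptor, held peaks of 48, 69 and 694, the first of them in the UTR of another transcript than the other two. In contrast, Mobp, a myelin protein, held peaks of 278, 283 and 347, and 2410131K14Rik peaks of 93, 91 and 171.

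The ZBTB gene family was among the gene lists looked up. Of 43 family genes with a 3′ UTR, 6 held an SssI member (14.0%, 6.56 to 27.3), against 5.58% of all genes with a 3′ UTR, and none held a TKO member, against 0.355%. The family's longest UTRs had a median of 2446 bp, against 987 bp over all genes, and 10.9% of all genes with 2000 bp to under 4000 bp held an SssI member. Zbtb20, a regulator of neural and hepatic development, held 4 peaks with scores from 50 to 89 in a UTR of 23858 bp. Zbtb7b, a factor of CD4 T cell commitment, scored 671 at rank 17700, Hic2 570, Zbtb7a 69, Zbtb10 52 and Zbtb41 42. The gene for ZBTB43 itself held no peak in its 3′ UTR in either list.

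In a list of 40 voltage-gated ion channel genes, 7 held an SssI member (17.5%, 8.75 to 31.95), against 5.58% of all genes. Their longest UTRs had a median of 2651.5 bp, against 987 bp over all genes. Of all genes with 2000 bp to under 4000 bp, 10.9% held an SssI member, a share inside the interval of the channels. Within the list the highest were Cacna1b, an N-type calcium channel subunit (score 623), and Kcnc1, a potassium channel (145). The list was not complete. It left out channel genes with SssI members of higher score, such as Cacna2d2 (1409), Kcng1 (1087) and Scn3b (1056). The peak of Kcnq3 scored 51, that of Cacna1e 50 and that of Scn8a 31. Of the microRNA pathway, Tnrc6c (688) and Tnrc6b (63), which encode partners of Argonaute, were 2 of 23 genes. Among proteins that bind 3′ UTRs the members were Hnrnpd (117), Qk (52) and Elavl3 (22), 3 of 25 genes. Tet1, a dioxygenase of 5-methylcytosine (76), was 1 of 13 genes of DNA methylation, and Tdrd1, a tudor protein of the piRNA pathway (107), 1 of 30 germ cell genes. For the microRNA, 3′ UTR binding, DNA methylation and germ cell lists, the Wilson interval included the 5.58% of all genes. No member was found among 21 genes of cleavage and polyadenylation, 9 genes of CA or UG repeat binding proteins and 2 genes of Z-DNA binding proteins. The upper Wilson limits were 15.5% with 21 genes, 29.9% with 9 and 65.8% with 2, all above the 5.58% of all genes. Over all lists, 20 of 206 genes held an SssI member (9.71%, 6.37 to 14.5), against 5.58% of all genes, and their median longest UTR was 2023 bp against 987 bp. The lists held no TKO member, with an upper Wilson limit of 1.83% for 206 genes, and the background was 0.355%. Kcng1, a channel gene outside the lists, did hold a TKO member (score 80).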

How the data were processed

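Reads had been mapped by the authors with BWA 0.7.17 (mm10), who pooled the duplicates and called peaks with MACS2 2.2.7.1 at q under 0.05 against the MBP libraries. The deposited lists give 1 score per peak, 10 times −log10 q, and no counts, so the depth of each library and its precision could not be computed; the study states depth for all libraries alike. Scores were ranked within each list and are not comparable between lists. Midpoints were placed on GENCODE release M21. Position was measured on the principal transcript (APPRIS), or else that with the longest UTR. Tracts and runs were read from the GRCm38 reference, so variants of the DNA used were not seen. Overlaps needed 1 bp. Computation used scipy 1.17.1, pandas 2.3.3 and numpy 2.4.6 under Python 3.11.15, with figures from matplotlib 3.10.9, and the counting was tested on simulated data. The members, gene lists and rules were chosen with earlier results of these data known. Genes were named by the highest 12 scores per list, 3 or more peaks, the 3 nearest each end of the UTR, longest tract, most CpGs, absence of a tract, or a gene list; any TKO member could be named. The alternatives tried were other annotations, score minimums, tract minimums and overlap rules. Some members that the rule would name are not reported here.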

Additional observations from a re-analysis of the deposited data

How the results depend on the processing

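Of 58 alternative values, 47 stayed within their limits, 11 moved and 0 reversed. The number of members ran from 61 to 81 on TKO DNA and from 990 to 1388 on SssI DNA, lowest with principal transcripts or a score of at least 50 and highest with any overlap of a UTR. The share of members in the upper part of their list was 22.5% (TKO) and 23.5% (SssI) with the upper quartile in place of the median, as the higher limit makes it. With tract minimums of 10, 16 and 24 bp, the share of tracts overlapping a TKO peak was 1.01%, 3.07% and 4.46%, and an SssI peak 8.02%, 27.4% and 43.0%, and the SssI members with a tract were 98.3%, 96.3% and 90.5%; the minimum itself sets how many tracts are counted. No paired analysis was possible because each list was made from pooled duplicates. Replicates could not be left out for the same reason. Without read counts, weak binding in 3′ UTRs and limited depth cannot be told apart.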
